A study of Mus musculus with 4 samples.

Results

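The mitochondrially encoded genes are the genes of the mitochondrial chromosome, taken here as every row of the deposited gene table whose identifier has a mouse symbol beginning with mt-. They were 37 of 41128 rows, and they are all 37 genes that the GENCODE vM21 annotation places on that chromosome. They comprise 13 messenger RNAs, 2 ribosomal RNAs and 22 transfer RNAs. Expression was measured in 4 libraries of C57BL/6 mouse liver, 1 per cell population, with RNA of 2 mice pooled in each. The populations were Prom1+CD49f+CD45- cells, Prom1-CD49f+CD45- cells, cells labelled Prom1+CD49f+CD45+, and the presorted CD45- cells from which the other 3 were sorted. Prom1 is the surface protein prominin-1, CD49f is integrin alpha 6 (gene Itga6), and CD45 is a surface protein of leukocytes (gene Ptprc).

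All 4 populations came from animals with alcoholic hepatitis, so no library shows a liver without the disease. Per the labels, the model gave 40% of calories as freely eaten high-cholesterol, high-fat chow and 60% as alcohol-containing liquid through a stomach tube, plus a binge each week. Hepatocytes had been spun out of the collagenase digest, and CD45+ cells had been taken out with magnetic beads. Neither age nor sex of the mice is stated in the labels. The RNA was selected for poly(A) tails, so each RNA, whether messenger, ribosomal or transfer, was counted only as far as it passed that selection.

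Depth and identity differed between libraries. Summed gene counts ran from 14670414 in Prom1-CD49f+CD45- cells to 52294143 in presorted cells, and 15314 to 19280 genes had at least 10 counts. Prom1 stood at 355 TMM-scaled CPM (CPM, the library's counts on a common total, after trimmed-mean scaling) in Prom1+CD49f+CD45- cells, 31.1 in Prom1-CD49f+CD45- cells, 11.4 in the cells labelled Prom1+CD49f+CD45+ and 67.1 in presorted cells. Prom1 was thus lowest in the cells labelled Prom1+CD49f+CD45+, against their label. Itga6 stood at 72.9 in Prom1+CD49f+CD45- cells, 50.5 in Prom1-CD49f+CD45- cells, 127 in the cells labelled Prom1+CD49f+CD45+ and 110 in presorted cells. Both sorted CD45- libraries were thus below presorted cells in Itga6, although labelled CD49f+. Ptprc stood at 6.33 in Prom1+CD49f+CD45- cells, below that in Prom1-CD49f+CD45- cells, at 14.5 in the cells labelled Prom1+CD49f+CD45+ and 21.0 in presorted cells. The cells labelled CD45+ were thus highest in Ptprc among the sorted libraries but below presorted cells, which are labelled CD45-. The text therefore speaks of the library, or the cells, labelled Prom1+CD49f+CD45+. Each population had 1 library, so no difference has a replicate check, no test was made, and every interval below covers counting error only. In these bulk libraries, fewer cells of a type and less RNA per cell cannot be told apart.

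The mitochondrial genome encodes only core subunits of the respiratory chain and of ATP synthase, with the ribosomal and transfer RNAs that translate them. All other subunits, and every protein that copies, transcribes and translates this genome, come from nuclear genes. Both strands are transcribed into long precursors, which are cut mainly at the transfer RNAs that lie between the other genes. Poly(A) tails are then added to most of the messenger RNAs, and in some of them the tail completes the stop codon. Hepatocytes are rich in mitochondria, and mitochondrial damage is a known feature of alcoholic liver disease.

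The sequences show this compact layout and what it does to counting. In mt-Co3, mt-Nd4 and mt-Cytb the annotated gene ended 1 base past its last whole codon. Their last 30 bases, on the plus strand of chromosome M in mm10, follow from GENCODE vM21, with the extra base in capitals.
mt-Co3 chrM:9361-9390: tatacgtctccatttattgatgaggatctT
mt-Nd4 chrM:11515-11544: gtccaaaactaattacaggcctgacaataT
mt-Cytb chrM:15259-15288: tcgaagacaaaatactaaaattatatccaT

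Neighbouring genes also shared bases, in 9 pairs. The longest stretch, 43 bases, joined mt-Atp8 and mt-Atp6 on the same strand, and 7 bases joined mt-Nd4l and mt-Nd4. The 3 bases shared by mt-Co1 and mt-Ts1 lie on opposite strands. Shared bases are in capitals in the ends of mt-Atp8, mt-Nd4l and mt-Co1 and in the whole of mt-Ts1, which is read from the minus strand.
mt-Atp8 chrM:7917-7969: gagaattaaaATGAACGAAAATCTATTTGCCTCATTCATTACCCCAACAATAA
mt-Nd4l chrM:10144-10173: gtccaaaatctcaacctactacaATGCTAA
mt-Co1 chrM:6843-6872: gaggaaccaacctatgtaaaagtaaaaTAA
mt-Ts1 chrM:6870-6938: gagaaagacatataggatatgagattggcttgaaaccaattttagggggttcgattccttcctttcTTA

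The nuclear genome holds stretches copied from mitochondrial DNA, and some had rows of their own in the gene table. A search found 15 such rows at 90% identity or more over at least 200 bases, of which 10 had at least 10 counts in a library. At 99% identity or more there were 7, side by side on the minus strand of chromosome 1 between 24611535 and 24616197 (mm10). They match the mitochondrial stretch from 6390 to 11042, from within mt-Co1 to within mt-Nd4. The first 60 bases of mt-Co3 and of its copy Gm28437, identical over all 783 matched bases, are shown because reads from them cannot be assigned by sequence.
mt-Co3 chrM:8607-8666: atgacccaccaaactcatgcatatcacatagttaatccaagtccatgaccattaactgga
Gm28437 chr1:24613912-24613971: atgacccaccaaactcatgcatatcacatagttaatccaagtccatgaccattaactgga

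The matched stretches of mt-Co1 with Gm29216 and of mt-Nd3 with Gm28438 differed at 1 base each, A1066T and T3C, counted from 1 at the first base of the mitochondrial gene. The windows around them follow with the differing base in capitals.
mt-Co1 chrM:6390-6408: ggaAttgttttatccaact
Gm29216 chr1:24616170-24616188: ggaTttgttttatccaact
mt-Nd3 chrM:9459-9476: atTaacctgtacactgtt
Gm28438 chr1:24613102-24613119: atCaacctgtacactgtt

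The deposited counts were close to equal in 4 of the 7 pairs, those of mt-Co3, mt-Atp6, mt-Co2 and mt-Nd3. mt-Co3 had 74409 counts in Prom1+CD49f+CD45- cells, 66840 in Prom1-CD49f+CD45- cells, 46441 in the cells labelled Prom1+CD49f+CD45+ and 203764 in presorted cells. Gm28437 had 74182, 66702, 46252 and 203034 in the same order, which is 49.9% of the pair in every library. Gm10925, the copy of mt-Atp6, took 49.9% in the 3 sorted libraries and 49.8% in presorted cells. Gm28661, the copy of mt-Co2, took 44.9% to 48.6%, and Gm28438, the copy of mt-Nd3, took 45.2% to 49.1%.

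The remaining chromosome 1 copies took less. Gm10222, identical to 294 of the 297 bases of mt-Nd4l, took 18.6% to 23.1% of its pair. Gm29216, which matches 483 bases at the end of mt-Co1, took 23.7% in Prom1+CD49f+CD45- cells, 29.8% in Prom1-CD49f+CD45- cells, 19.7% in the cells labelled Prom1+CD49f+CD45+ and 14.3% in presorted cells. Among the 7 pairs, mt-Co1 was the one divided most unequally between libraries. Gm28439, identical to 876 bases of mt-Nd4, had 0 counts in all 4 libraries. Of the copies below 99% identity, Gm13340, Gm13341, Gm11407 and Gm11410 passed 10 counts, and none of them exceeded 0.259% of its pair. Levels below are of the mitochondrial rows as deposited unless the copies are said to be added.

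Mitochondrially encoded RNAs took a smaller part of the counts in 2 of the sorted libraries than in the other libraries. They made up 2.71% of the gene counts of Prom1+CD49f+CD45- cells (95% exact binomial interval 2.70 to 2.72), 3.999% in Prom1-CD49f+CD45- cells (3.99 to 4.01), 2.24% in the library labelled Prom1+CD49f+CD45+ (2.24 to 2.25) and 4.03% in presorted cells (4.02 to 4.03). Prom1-CD49f+CD45- and presorted cells lay close together and above the other libraries. With the 7 near-identical copies added, the shares were 3.43%, 5.31%, 2.86% and 5.09% in the same order, and Prom1-CD49f+CD45- cells came out highest, as they did with either other denominator tried.

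The 13 messenger RNAs accounted for most of the share. They held 1.93% of counts in Prom1+CD49f+CD45- cells, 2.99% in Prom1-CD49f+CD45- cells, 1.65% in the cells labelled Prom1+CD49f+CD45+ and 3.20% in presorted cells. The ribosomal RNAs differed less between libraries, at 0.768%, 0.994%, 0.576% and 0.803% in that order. Within the mitochondrial counts the ribosomal RNAs made up 28.3% in Prom1+CD49f+CD45- cells, 24.8% in Prom1-CD49f+CD45- cells, 25.7% in the cells labelled Prom1+CD49f+CD45+ and 19.96% in presorted cells. Presorted cells thus had the lowest ribosomal part and Prom1+CD49f+CD45- cells the highest. Transfer RNAs took 0.0118% to 0.0264% of all counts.

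**Figure D1:**
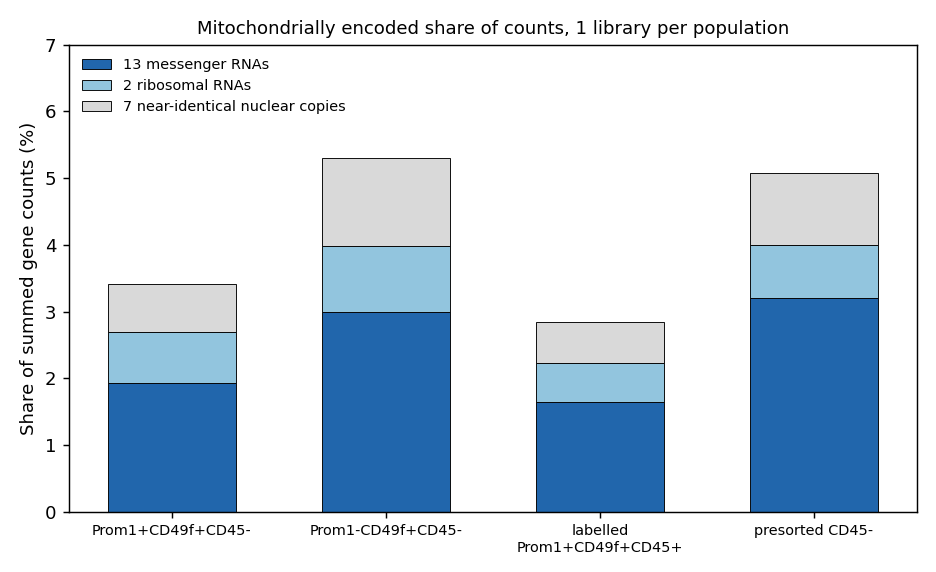
Share of summed gene counts (%) taken by the mitochondrial messenger RNAs, ribosomal RNAs and the near-identical nuclear copies, as stacked bars with 1 library per bar. The messenger RNA part is 1.93% and 1.65% in Prom1+CD49f+CD45- cells and the library labelled Prom1+CD49f+CD45+, and 2.99% and 3.20% in Prom1-CD49f+CD45- and presorted cells.

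Levels of the 13 messenger RNAs followed a common order of libraries, with exceptions at both ends. Presorted cells were highest in 10 of 13, and Prom1-CD49f+CD45- cells in the other 3, which were mt-Atp8, mt-Atp6 and mt-Co3. The library labelled Prom1+CD49f+CD45+ was lowest in 10, and Prom1+CD49f+CD45- cells were lowest in mt-Co1, mt-Atp6 and mt-Nd3. With the nuclear copies added, Prom1+CD49f+CD45- cells stayed lowest in mt-Atp6 alone, at 3525 scaled CPM against 3726 in the library labelled Prom1+CD49f+CD45+. They then stood above that library in mt-Co1 (5812 against 5562) and mt-Nd3 (121 against 119). Neighbouring libraries had overlapping intervals in mt-Nd1, mt-Co1 and mt-Nd3, each time Prom1+CD49f+CD45- cells and the library labelled Prom1+CD49f+CD45+. For mt-Rnr1 the presorted and Prom1-CD49f+CD45- intervals overlapped.

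Cytochrome c oxidase, complex IV, passes electrons to oxygen, and its 3 core subunits are mitochondrially encoded. Its catalytic subunit gene mt-Co1 (ENSMUSG00000064351; chromosome M, 5328 to 6872) stood at 4432 scaled CPM in Prom1+CD49f+CD45- cells, 5401 in Prom1-CD49f+CD45- cells, 4467 in the cells labelled Prom1+CD49f+CD45+ and 9804 in presorted cells. All 3 sorted libraries lay well below the presorted one. mt-Co2, which encodes the subunit that takes electrons from cytochrome c, had 1121, 2215, 1074 and 2600 scaled CPM in that order. The third subunit gene, mt-Co3, had 2171, 4721, 1871 and 4586, with Prom1-CD49f+CD45- and presorted cells close together.

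ATP synthase has 2 mitochondrially encoded subunits, both in its membrane part, with mt-Atp6 encoding the subunit of the proton path. mt-Atp6 (chromosome M, 7927 to 8607) stood at 1767 scaled CPM in Prom1+CD49f+CD45- cells, 4412 in Prom1-CD49f+CD45- cells, 1869 in the cells labelled Prom1+CD49f+CD45+ and 4089 in presorted cells. mt-Atp8, which shares 43 bases with it, had 423, 1049, 286 and 904 scaled CPM in the same order. For both, Prom1-CD49f+CD45- cells were highest.

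Complex III, which hands electrons to cytochrome c, has 1 mitochondrially encoded subunit, cytochrome b. Its gene mt-Cytb (chromosome M, 14145 to 15288) stood at 3078 scaled CPM in Prom1+CD49f+CD45- cells, 5983 in Prom1-CD49f+CD45- cells, 2585 in the cells labelled Prom1+CD49f+CD45+ and 6955 in presorted cells. The same division of the libraries appears, with presorted cells first.

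NADH dehydrogenase, complex I, is where electrons from NADH enter the chain, and 7 of its membrane subunits are mitochondrially encoded. mt-Nd4 stood at 1260 scaled CPM in Prom1+CD49f+CD45- cells, 2002 in Prom1-CD49f+CD45- cells, 1070 in the cells labelled Prom1+CD49f+CD45+ and 2591 in presorted cells. mt-Nd1 had 1035, 2486, 1023 and 2601 in that order, and mt-Nd2 had 471, 996, 432 and 1292. In all of these the presorted level was more than 2 times that of Prom1+CD49f+CD45- cells.

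mt-Nd5 had 767 scaled CPM in Prom1+CD49f+CD45- cells, 1094 in Prom1-CD49f+CD45- cells, 419 in the cells labelled Prom1+CD49f+CD45+ and 1375 in presorted cells. mt-Nd6 (chromosome M, 13552 to 14070), the only messenger RNA on the minus strand, had 324, 411, 159 and 492. Both were lowest in the library labelled Prom1+CD49f+CD45+. The short mt-Nd3 and mt-Nd4l were the least abundant, at 62.7, 97.5, 65.0 and 156 scaled CPM for mt-Nd3 and 81.4, 123, 48.6 and 160 for mt-Nd4l, in the same order of libraries.

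The 16S ribosomal RNA gene mt-Rnr2 stood at 6237 scaled CPM in Prom1+CD49f+CD45- cells, 9548 in Prom1-CD49f+CD45- cells, 4981 in the cells labelled Prom1+CD49f+CD45+ and 8682 in presorted cells. The 12S gene mt-Rnr1 had 536, 748, 376 and 770. Its counts were 7.56% to 8.87% of those of mt-Rnr2 in the 4 libraries, while each mitochondrial ribosome holds both RNAs. Per kb of gene, the level of mt-Rnr2 in Prom1+CD49f+CD45- cells was 3942 scaled CPM against 561 for mt-Rnr1.

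Per kb of gene, levels formed a graded order. Division by length presumes reads along the whole gene, here and for the ribosomal RNAs above. Whether that holds is not settled, since the series title names Quant-seq and the protocols a stranded kit. The order of genes per kb is given with that limit. In Prom1+CD49f+CD45- cells mt-Rnr2, mt-Co1, mt-Co3, mt-Cytb and mt-Atp6 had 2595 to 3942 scaled CPM per kb, and mt-Nd2, mt-Nd5, mt-Nd4l and mt-Nd3 had 180 to 454, with the other 6 genes in between. The presorted library had mt-Co1 first at 6346 scaled CPM per kb and mt-Nd3 last at 448. In Prom1-CD49f+CD45- cells mt-Atp6 came first at 6479, and mt-Co1 was sixth at 3496. The order depends on the copies, since with their counts added mt-Co3 and mt-Atp6 came first in Prom1+CD49f+CD45- cells, with 5530 and 5176 per kb.

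**Figure D2:**
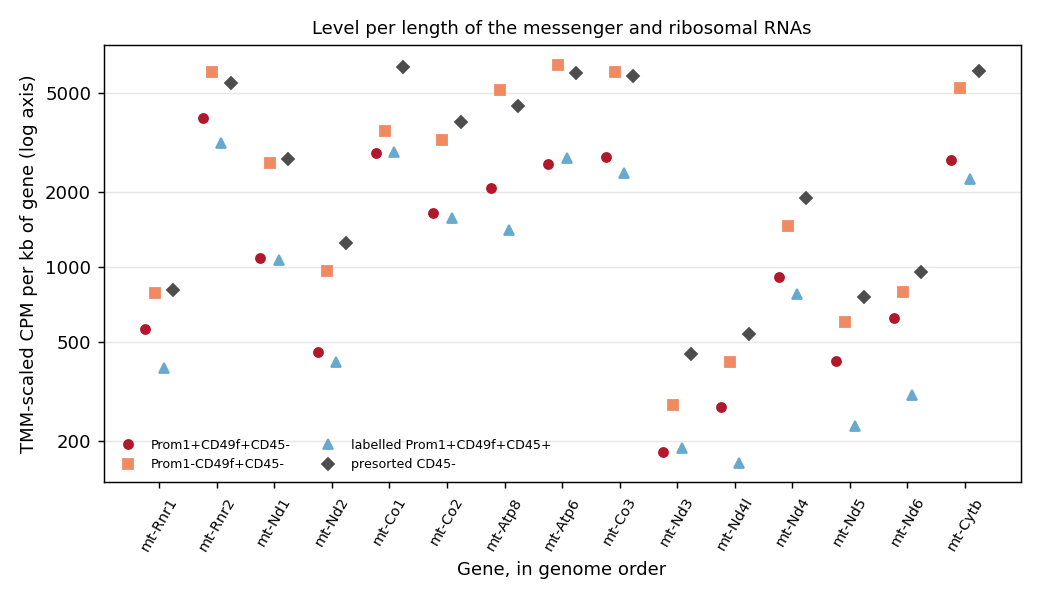
TMM-scaled CPM per kb of gene (log axis) for the 15 messenger and ribosomal RNAs in genome order, 1 point per library. Division by length, which presumes reads along the whole gene, bears on the order of genes and not on that of libraries. Points of Prom1-CD49f+CD45- and presorted cells lie above those of the other libraries in every gene. In these counts as deposited, mt-Co1 is the gene in which presorted cells stand farthest above Prom1-CD49f+CD45- cells. With the nuclear copies added, which are not drawn, it is mt-Nd3.

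Of the 22 transfer RNAs, 2 had at least 100 counts in a library, 14 had at least 10, and mt-Tf had 0 in all 4. mt-Ts1 stood at 128 scaled CPM in Prom1+CD49f+CD45- cells, 135 in Prom1-CD49f+CD45- cells, 103 in the cells labelled Prom1+CD49f+CD45+ and 281 in presorted cells. This gene lies on the minus strand against the end of mt-Co1, and its counts were 2.31% to 2.88% of those of mt-Co1 in each library. mt-Te, on the minus strand beside mt-Nd6, had 8.02, 6.92, 2.86 and 17.0 scaled CPM in the same order. The labels do not say how the counting handled strand, so reads of mt-Co1 and mt-Ts1, or of mt-Nd5 and mt-Nd6, cannot be told apart with certainty where they overlap. Both strands give long precursors, so minus-strand rows such as mt-Ts1, mt-Te and mt-Nd6 could also hold plus-strand reads beyond the annotated overlaps. This was not tested. The other 20 transfer RNAs together had 211 counts in Prom1+CD49f+CD45- cells, 150 in Prom1-CD49f+CD45- cells, 96 in the cells labelled Prom1+CD49f+CD45+ and 578 in presorted cells.

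The make-up of the messenger RNA counts needs no scaling between libraries, and as deposited it differed most for mt-Nd6, mt-Atp8, mt-Co1 and mt-Nd5. With the nuclear copies added, mt-Nd4l passed mt-Co1 in this order. mt-Co1 made up 26.1% of the messenger RNA counts in Prom1+CD49f+CD45- cells, 17.4% in Prom1-CD49f+CD45- cells, 29.1% in the cells labelled Prom1+CD49f+CD45+ and 26.1% in presorted cells. Prom1-CD49f+CD45- cells stood apart from the rest, and with the nuclear copies added the values were 24.9%, 17.2%, 26.3% and 22.8%. In turn they had the largest part in mt-Atp6, at 14.2% against 10.4% in Prom1+CD49f+CD45- cells, 12.2% in the cells labelled Prom1+CD49f+CD45+ and 10.9% in presorted cells.

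mt-Nd6 made up 1.91% in Prom1+CD49f+CD45- cells, 1.33% in Prom1-CD49f+CD45- cells, 1.04% in the cells labelled Prom1+CD49f+CD45+ and 1.31% in presorted cells. mt-Nd5, whose end overlaps mt-Nd6 on the opposite strand by 14 bases, made up 4.51%, 3.53%, 2.72% and 3.66% in that order. Both parts were largest in Prom1+CD49f+CD45- cells and smallest in the library labelled Prom1+CD49f+CD45+. The counts of mt-Nd6 were 35.8% to 42.3% of those of mt-Nd5. With strand handling not stated, the rows may not be independent of each other. mt-Co2 varied least, with the highest part 1.08 times the lowest, and mt-Nd4 and mt-Cytb followed at 1.15 times each.

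**Figure D3:**
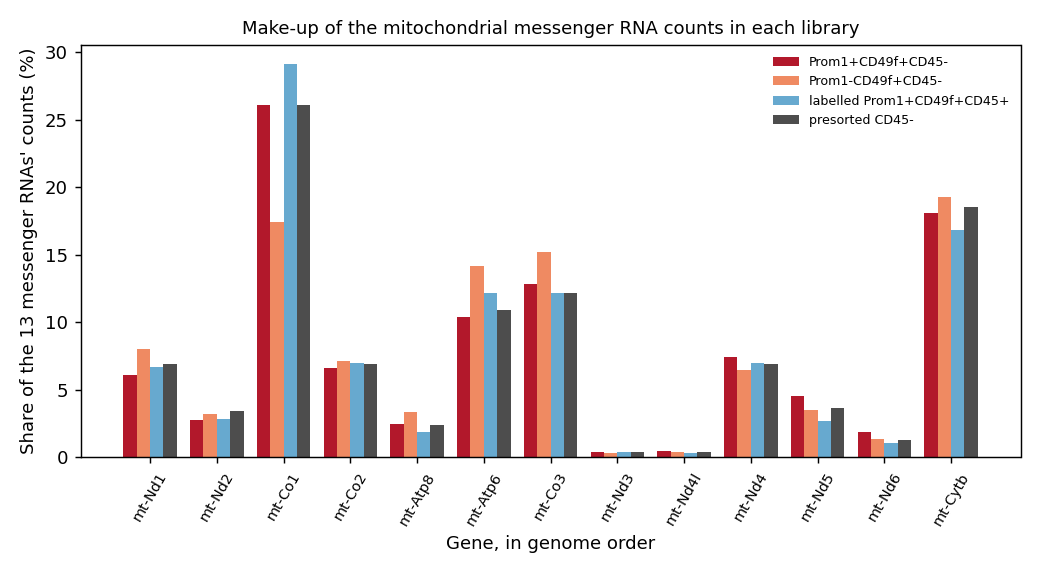
Share (%) of the counts of the 13 messenger RNAs taken by each gene, with 1 bar per library. The mt-Co1 bar of Prom1-CD49f+CD45- cells, at 17.4%, is lower than those of the other libraries, at 26.1% to 29.1%.

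Comparisons between libraries used the ratio of scaled counts with its exact 95% interval. A gene is called where the whole interval lies beyond 2-fold, among genes with at least 10 counts in either library. The 5 comparisons share libraries, so they are not independent of each other, and each is given with its own values.

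Prom1+CD49f+CD45- cells were set against Prom1-CD49f+CD45- cells to show what differed with surface Prom1 among CD49f+CD45- cells. All 13 messenger RNAs had lower levels with Prom1, and 5 were called lower and 0 higher, while 13.7% of all genes compared were called lower and 16.9% higher. mt-Atp6 had the lowest log2 ratio at -1.32 (ratio 0.401, 0.396 to 0.405), followed by mt-Atp8 at -1.31, mt-Nd1 at -1.26, mt-Co3 at -1.12 and mt-Nd2 at -1.08. mt-Co1 at -0.29 and mt-Nd6 at -0.34 were nearest to equal. The median was -0.96, against 0.45 over the 19807 genes compared. This all-gene median depended on the count minimum, at 0.26 with at least 50 counts and -0.12 with at least 1. Neither ribosomal RNA was called, with log2 ratios of -0.48 for mt-Rnr1 and -0.61 for mt-Rnr2. Scaled by library totals, 3 remained called (mt-Nd1, mt-Atp8 and mt-Atp6). With the counts of nuclear-encoded respiratory genes as the scale none was, and only 7 of the 13 log2 ratios were below 0.

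Set against presorted cells, Prom1+CD49f+CD45- cells again had lower levels of all 13 messenger RNAs. In all, 10 were called lower and 0 higher, while 16.5% of all genes were called lower and 28.3% higher. mt-Nd2 had the lowest log2 ratio at -1.45 (ratio 0.365, 0.359 to 0.371), and mt-Co1 stood at -1.15 (0.452, 0.449 to 0.455). The 3 not called were mt-Nd4l at -0.98, mt-Nd5 at -0.84 and mt-Nd6 at -0.60. The median was -1.15, against 0.12 over all genes. mt-Rnr1 at -0.52 and mt-Rnr2 at -0.48 were closer to equal than any messenger RNA. Of 14 transfer RNAs with enough counts, 2 were called lower, mt-Ts1 at -1.14 and mt-Ta, which had 1 count in Prom1+CD49f+CD45- cells and 24 in presorted cells. Calls depended on the scale, with 1 (mt-Nd2) under library totals, 4 by the authors' normalized values and 0 on the scale of nuclear-encoded respiratory genes. Those 4 rest on the ratio alone being beyond 2-fold, without an interval. Under every scale tried all 13 stayed below 0.

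Prom1-CD49f+CD45- cells had levels near those of presorted cells. None of the 13 messenger RNAs was called, while 17.9% of all genes were called lower and 9.93% higher. The median log2 ratio was -0.26, against -0.16 over all genes. As deposited, mt-Co1 was lowest at -0.86 (ratio 0.551, 0.547 to 0.555), and mt-Atp8 at 0.21, mt-Atp6 at 0.11 and mt-Co3 at 0.04 were above 0. With the nuclear copies added, mt-Co1 had 7692 scaled CPM against 11438 in presorted cells. On those counts mt-Nd3, at 190 against 307, had the lowest ratio. Direction depended on the scale here, with 10 of 13 below 0 as given, 9 under library totals or DESeq2 size factors, 13 on the scale of nuclear-encoded respiratory genes and 3 by the authors' normalized values.

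The library labelled Prom1+CD49f+CD45+ had the lowest levels relative to presorted cells. All 13 messenger RNAs were called lower and 0 higher, while 12.7% of all genes were called lower and 23.7% higher. Log2 ratios ran from -1.72 for mt-Nd4l (ratio 0.303, 0.285 to 0.322) to -1.13 for mt-Co1 and mt-Atp6, with a median of -1.35 against 0.06 over all genes. mt-Rnr1 at -1.03 and mt-Rnr2 at -0.80 were not called. Of 13 transfer RNAs with enough counts, 6 were called lower, among them mt-Te at -2.57 (ratio 0.169, 0.130 to 0.215) and mt-Ts1 at -1.45. Under library totals 6 messenger RNAs were called, and on the scale of nuclear-encoded respiratory genes none was, with all 13 still below 0.

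Prom1+CD49f+CD45- cells and the library labelled Prom1+CD49f+CD45+ had similar levels of most members. None of the 15 messenger and ribosomal RNAs was called, while 13% of all genes were called higher and 13.5% lower. The median log2 ratio of the messenger RNAs was 0.21, against -0.16 over all genes. The farthest from equal were mt-Nd6 at 1.02 (ratio 2.03, 1.96 to 2.11) and mt-Nd5 at 0.87, and mt-Nd1, mt-Co1 and mt-Co2 were within 0.06 of 0. mt-Te was called higher at 1.49 (ratio 2.81, 2.15 to 3.70). The number of messenger RNAs below 0 was 3 as given, 1 under library totals and 1 with the nuclear copies added. It was 9 on the scale of nuclear-encoded respiratory genes and 7 by the authors' normalized values. The direction of the group thus depends on the scale.

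**Figure D4:**
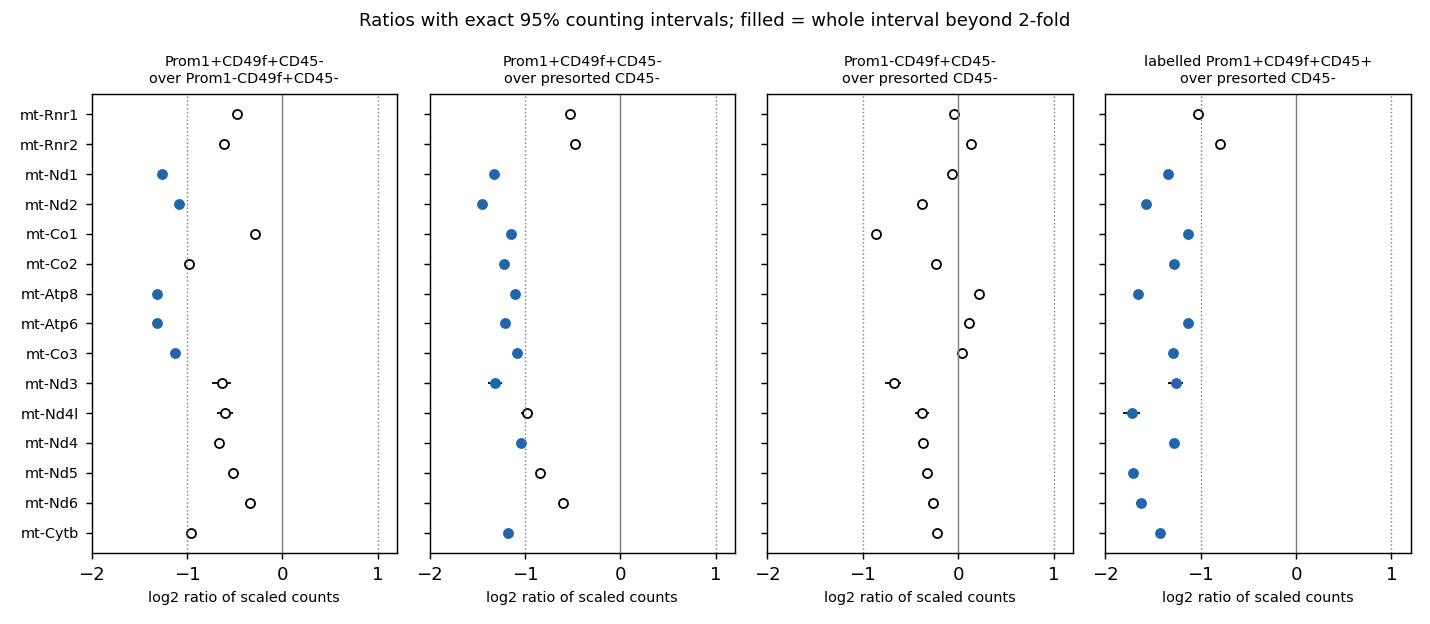
Log2 ratio of scaled counts for the 15 messenger and ribosomal RNAs in 4 of the comparisons, with exact 95% counting intervals as lines; filled points are called and dotted lines mark 2-fold. The number of filled points is 5, 10, 0 and 13 from left to right.

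Nuclear-encoded subunits of the same complexes also had lower summed levels than presorted cells in both libraries with lower mitochondrial levels, with ratios closer to equal in each complex. The list held 75 genes, all of which could be compared, and 4 of them belong to complex II, which has no mitochondrially encoded subunit. Prom1+CD49f+CD45- cells had 7974 scaled CPM summed over them, Prom1-CD49f+CD45- cells 12977, the library labelled Prom1+CD49f+CD45+ 5893 and presorted cells 10964. The summed mitochondrial messenger RNAs over these nuclear genes gave a ratio of 2.13, 2.39, 2.61 and 3.43 in that order, highest in presorted cells. With the copies added the ratios were 2.93, 3.44, 3.59 and 4.58.

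Against presorted cells, summed mitochondrial subunits of each complex in Prom1+CD49f+CD45- cells had log2 ratios of -1.12 (complex I), -1.18 (complex III), -1.14 (complex IV) and -1.19 (ATP synthase). The nuclear subunits of the same complexes had -0.40, -0.57, -0.43 and -0.45. Of the 75 genes, 1 was called lower, Uqcrq of complex III, and 0 higher. Over all genes 16.5% were called lower and 28.3% higher. In the library labelled Prom1+CD49f+CD45+ the nuclear log2 ratios were -0.84, -0.95, -0.94 and -0.89, with 14 of 75 called lower and 0 higher. Of all genes, 12.7% were called lower and 23.7% higher in that comparison. Prom1-CD49f+CD45- cells had mitochondrial log2 ratios of -0.27, -0.22, -0.46 and 0.13 and nuclear ones of 0.39, 0.15, 0.50 and 0.12. On the TMM scale the sides thus lay apart in direction except for ATP synthase. Direction in this comparison depended on the scale, while the gap between the sides does not.

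Between Prom1+CD49f+CD45- and Prom1-CD49f+CD45- cells the mitochondrial and nuclear sides were nearest in complex I and farthest apart in ATP synthase. Mitochondrial log2 ratios were -0.85, -0.96, -0.68 and -1.32 and nuclear ones -0.79, -0.72, -0.94 and -0.57 in the same order of complexes. Among the nuclear genes 11 of 75 were called lower and 0 higher, with a median of -0.82. Over all genes 13.7% were called lower and 16.9% higher, so the count of lower calls is near the background. Cox6a1, a small subunit of complex IV, was called lower at -1.54, with 261 scaled CPM in Prom1+CD49f+CD45- cells and 760 in Prom1-CD49f+CD45- cells. Atp5b and Atp5a1, the catalytic-head subunits of ATP synthase, were nearly equal at -0.01 and 0.16, and Sdha, the flavoprotein of the wholly nuclear-encoded complex II, stood at 0.51.

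**Figure D5:**
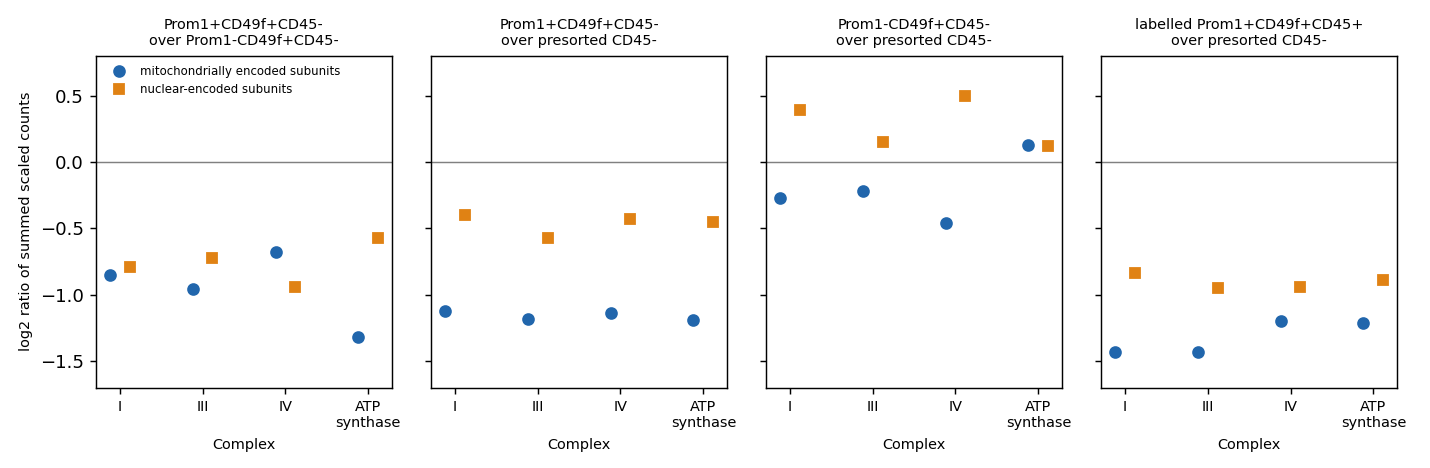
Log2 ratio of summed scaled counts for mitochondrially encoded (circles) and nuclear-encoded (squares) subunits of each complex in 4 comparisons. Against presorted cells the circles of Prom1+CD49f+CD45- cells lie between -1.19 and -1.12 and the squares between -0.57 and -0.40.

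Few genes for the upkeep and reading of the mitochondrial genome were called. Of 16 transcription and replication genes, Prom1+CD49f+CD45- cells had 1 called higher than Prom1-CD49f+CD45- cells and 0 lower, with a median log2 ratio of -0.17. Over all genes 16.9% were called higher and 13.7% lower, so these counts are below the background. The gene called higher was Twnk, the helicase of mitochondrial DNA, at 1.61. Tfam, which packages mitochondrial DNA and starts its transcription, had 25.5 scaled CPM in Prom1+CD49f+CD45- cells, 29.7 in Prom1-CD49f+CD45- cells, 25.9 in the cells labelled Prom1+CD49f+CD45+ and 36.5 in presorted cells. Polrmt, the mitochondrial RNA polymerase, had 25.9, 11.2, 21.9 and 30.5, and was called lower in Prom1-CD49f+CD45- cells against presorted cells, at -1.44. In that comparison 3 of the 16 genes were called lower and 1 higher, beside 17.9% of all genes called lower and 9.93% higher. The counts are thus near the background. Twnk at -1.30 and Polg, the mitochondrial DNA polymerase, at -1.59 were the others lower, and Mterf1b was the higher at 2.49.

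Of 29 genes of mitochondrial RNA processing and stability, 1 was called higher and 1 lower in Prom1+CD49f+CD45- than in Prom1-CD49f+CD45- cells, with a median log2 ratio of 0.08. Over all genes 16.9% were called higher and 13.7% lower, so both counts are below the background. Nsun3, a transfer RNA methyltransferase, was the higher at 1.51, and Rexo2, an enzyme that degrades very short RNAs, the lower at -1.43. Lrpprc, which stabilises mitochondrial messenger RNAs, had 41.0 scaled CPM in Prom1+CD49f+CD45- cells, 18.3 in Prom1-CD49f+CD45- cells, 33.4 in the cells labelled Prom1+CD49f+CD45+ and 68.4 in presorted cells. It was called lower in Prom1-CD49f+CD45- cells against presorted cells, at -1.90. In that comparison 2 of the 29 genes were called lower and 0 higher, with a median of 0.02. Over all genes 17.9% were called lower and 9.93% higher, so these counts too are below the background.

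Among 77 mitochondrial ribosomal proteins, 7 were called lower and 0 higher in Prom1+CD49f+CD45- than in Prom1-CD49f+CD45- cells, with a median of -0.75. Over all genes 13.7% were called lower and 16.9% higher. Mrpl17 had the highest mean level of these, with 45.8 scaled CPM in Prom1+CD49f+CD45- cells and 127 in Prom1-CD49f+CD45- cells. Against presorted cells 1 was called lower and 1 higher in Prom1+CD49f+CD45- cells, at a median of -0.31. The library labelled Prom1+CD49f+CD45+ had 6 called lower and 1 higher, at a median of -0.60, and Prom1-CD49f+CD45- cells had 0 lower and 1 higher, at a median of 0.46. Mrpl48 was the gene called higher in each of these. Of all genes, 16.5%, 12.7% and 17.9% were called lower in these 3 comparisons, and 28.3%, 23.7% and 9.93% higher.

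Of 6 regulators of mitochondrial biogenesis, Ppargc1a was the 1 called higher. This gene of the coactivator PGC-1 alpha had 38.7 scaled CPM in Prom1+CD49f+CD45- cells, 5.09 in Prom1-CD49f+CD45- cells, 5.60 in the cells labelled Prom1+CD49f+CD45+ and 7.43 in presorted cells. It was called higher in Prom1+CD49f+CD45- cells, at 2.93 against Prom1-CD49f+CD45- cells and 2.38 against presorted cells. Of all genes, 16.9% and 28.3% were called higher in these comparisons. Gabpa and Nrf1, transcription factors of respiratory genes, had 62.4 and 41.2 scaled CPM in Prom1+CD49f+CD45- cells and 31.1 and 30.1 in Prom1-CD49f+CD45- cells, and neither was called between these libraries. Against presorted cells, Gabpa at -1.28, Esrra at -1.49 and Ppargc1b at -1.88 were called lower in Prom1-CD49f+CD45- cells, and Ppargc1b at -1.59 in Prom1+CD49f+CD45- cells. Of all genes, 17.9% and 16.5% were called lower in these libraries against presorted cells.

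Of 18 genes for import, carriers and matrix enzymes, 6 were called lower and 0 higher in Prom1+CD49f+CD45- than in Prom1-CD49f+CD45- cells, with a median of -0.65. Over all genes 13.7% were called lower and 16.9% higher. Slc25a5, an ADP and ATP carrier, had 243 scaled CPM in Prom1+CD49f+CD45- cells, 572 in Prom1-CD49f+CD45- cells, 273 in the cells labelled Prom1+CD49f+CD45+ and 635 in presorted cells. Cs, citrate synthase of the matrix, had 154, 114, 152 and 193 in that order and was not called in any comparison. Vdac1, the outer membrane channel, had 198, 132, 127 and 236 and was not called either.

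Markers of several cell types differed between the libraries beside the mitochondrial levels, and their part in those differences was not tested. The 20 hepatocyte markers summed to 12516 scaled CPM in Prom1+CD49f+CD45- cells, 8634 in Prom1-CD49f+CD45- cells, 1017 in the cells labelled Prom1+CD49f+CD45+ and 47711 in presorted cells. Against presorted cells, 18 of 20 were called lower in Prom1+CD49f+CD45- cells and 20 of 20 in Prom1-CD49f+CD45- cells, beside 16.5% and 17.9% of all genes. Trf and Alb carried most of the sum in Prom1+CD49f+CD45- cells, and the median marker level was 55.1 there against 141 in Prom1-CD49f+CD45- cells. Between these libraries 3 of 20 were called higher and 8 lower, beside 16.9% and 13.7% of all genes. The 15 cholangiocyte markers summed to 52855, 20622, 893 and 10267 in the same order, led by Clu and Spp1.

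The 15 endothelial markers summed to 173 scaled CPM in Prom1+CD49f+CD45- cells, 8512 in Prom1-CD49f+CD45- cells, 18479 in the cells labelled Prom1+CD49f+CD45+ and 14093 in presorted cells, with Clec4g, Stab2 and Kdr the most abundant on average. In Prom1-CD49f+CD45- cells against presorted cells the list was split, with 3 called higher (Vwf at 2.77, Plvap at 1.46 and Emcn at 1.45) and 6 lower, among them Stab2 at -2.97 and Kdr at -2.82. Of all genes, 9.93% were called higher and 17.9% lower in this comparison. The 12 macrophage markers summed to 101, 464, 1986 and 2240, mostly Mrc1, which sinusoidal endothelium also expresses. The 12 fibroblast and mesothelial markers summed to 57.4, 2556, 573 and 1285. They were split too in Prom1-CD49f+CD45- cells against presorted cells, with 4 called higher (Fbln2, Upk3b, Msln and Vim) and 5 lower (Col1a1, Col3a1, Lum, Pdgfra and Pdgfrb). Both libraries with low mitochondrial levels were thus at opposite ends in duct and endothelial markers. No marker of these 5 lists was at 0 in any library.

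Immediate early genes, which respond to stress and handling, were also unequal. The 16 genes summed to 18114 scaled CPM in Prom1+CD49f+CD45- cells, 11261 in Prom1-CD49f+CD45- cells, 8465 in the cells labelled Prom1+CD49f+CD45+ and 4659 in presorted cells. Fos had 2053, 1508, 883 and 304 in that order. All 3 sorted libraries were above the presorted one, and the part of this difference in the mitochondrial levels was not tested. Amplification ran for 12 to 14 cycles with low input and 6 to 10 with more, per the labels, and the labels do not say which library had which.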

How the data were processed

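Deposited by the authors were estimated counts for each gene, part of them not whole numbers, and a table of their CPM values with 1 added, whose divisor was larger than the summed gene counts. TopHat2, Partek 3 and mm10 are named in the submitters' processing notes; the notes give no settings, annotation release or strand handling. The labels' protocols name poly(A) selection and a stranded kit, while the series title names Quant-seq, which was not resolved here. Columns of sorted populations carried their gate numbers from the design text, and the remaining column, named CD45, was taken as presorted CD45- cells.

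Estimated counts were rounded and scaled by TMM in edgeR 4.0.16 (R 4.3.3) over 21640 genes. Levels are scaled CPM with exact Poisson intervals, ratios have exact conditional binomial intervals at 95%, and a call needs the whole interval beyond 2-fold among genes that reached 10 counts in either library. The calling was checked on simulated counts, which carried counting error only and no spread between libraries. Amplified reads without molecular identifiers are not independent molecules, so intervals can be too narrow. For a ratio, a count of 0 was replaced by 3 counts, or 0.0675 to 0.212 scaled CPM. With 1 library per group no p-value or standard error was computed.

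Positions, symbols and sequences are from GENCODE vM21 on mm10, which matched 40254 of 41128 rows. Nuclear copies were found with blastn 2.17.0 (at least 90% identity over 200 bases). Members, gene lists and tests were chosen with earlier results of these data known. The text names all messenger and ribosomal RNAs, transfer RNAs with at least 100 counts, the 2 to 4 most abundant genes of a list and genes showing a split of direction, the copies with at least 10 counts and the sorted proteins' genes. Twnk, Tfam, Polrmt, Nsun3, Lrpprc, Uqcrq, Esrra, Ppargc1b, Cs, Vdac1, Gm28439, mt-Ta and mt-Tf were named after their values were seen. Alternatives covered the denominator, library totals, DESeq2 1.42.0 size factors, totals without members, nuclear respiratory genes as the scale, count minimums, the authors' CPM and, added after seeing the data, the nuclear copies.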

Additional observations from a re-analysis of the deposited data

Results flagged for a closer look

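mt-Atp8, mt-Atp6, mt-Co3 and mt-Rnr2 lay on different sides of the presorted library in different sorted populations. The log2 ratio of mt-Atp8 over presorted CD45- cells was -1.10 in Prom1+CD49f+CD45- cells, 0.21 in Prom1-CD49f+CD45- cells and -1.66 in the library labelled Prom1+CD49f+CD45+. For mt-Atp6 the log2 ratios were -1.21, 0.11 and -1.13 in that order, and for mt-Co3 they were -1.08, 0.04 and -1.29. The 16S ribosomal RNA gene mt-Rnr2 had -0.48, 0.14 and -0.80. The differences between the populations' ratios were not tested, since each had 1 library, and the positive values were all within 2-fold. All 4 positive values come from the Prom1-CD49f+CD45- library, whose direction depended on the scale.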

How the results depend on the processing

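No paired analysis was possible because each group had 1 library. Shares of counts are given in the order Prom1+CD49f+CD45-, Prom1-CD49f+CD45-, labelled Prom1+CD49f+CD45+ and presorted CD45-. Against 2.71%, 3.999%, 2.24% and 4.03% as reported, they were 1.82%, 3.53%, 1.85% and 3.11% with the authors' divisor. They were 3.10%, 4.57%, 2.42% and 4.43% without the 23 most counted other rows, and 3.43%, 5.31%, 2.86% and 5.09% with the nuclear copies added. Prom1-CD49f+CD45- cells passed the presorted cells under each of these. Of the 15 messenger and ribosomal RNAs, 5 were called lower in Prom1+CD49f+CD45- than in Prom1-CD49f+CD45- cells, against 3 under library totals or totals without members and 0 on the scale of nuclear respiratory genes. Prom1+CD49f+CD45- against presorted cells had 10 lower, against 1, 1 and 0 on these scales and 4 by the authors' values. The library labelled Prom1+CD49f+CD45+ against presorted cells had 13 lower, against 6, 7, 0 and 5. Calls by the authors' values, here and below, used the ratio alone beyond 2-fold, without an interval, so their rule differs from the others. Prom1-CD49f+CD45- against presorted cells had 0, and 1 lower on the nuclear respiratory scale. Prom1+CD49f+CD45- cells against the cells labelled Prom1+CD49f+CD45+ had 0, and 1 higher (mt-Nd6) under library totals, totals without members or DESeq2 size factors. The ratio of summed messenger RNA counts changed sign for Prom1-CD49f+CD45- over presorted cells by the authors' values (0.10 against -0.28), and for Prom1+CD49f+CD45- over the library labelled Prom1+CD49f+CD45+ by the authors' values (-0.08) and on the nuclear respiratory scale (-0.29), against 0.14. Of 600 values of single members, 512 kept direction and call, 78 lost the call, 10 gained it and 0 changed sign while called. The cause of these changes was not tested. Relative to TMM, the median log2 ratio of all genes shifted by 0.07 to 0.42 under library totals, -0.17 to 0.17 under DESeq2 size factors, -0.44 to 0.90 on the nuclear respiratory scale and -0.25 to 0.38 by the authors' values. For Prom1+CD49f+CD45- over Prom1-CD49f+CD45-, 55.3% of all calls were higher, against 67.2% under library totals, 66.2% without members and 81.9% on the nuclear respiratory scale. For Prom1-CD49f+CD45- over presorted, 35.7% were higher, against 48.1%, 48.1% and 24.1%, 47.0% with DESeq2 and 58.6% by the authors' values. On the nuclear respiratory scale the other 3 comparisons went to 73.4%, 84.7% and 32.8%, against 63.2%, 65.1% and 49.0%, and the last stood at 35.7% by the authors' values. With a minimum of 50 counts, 48.8% of calls were higher for Prom1+CD49f+CD45- and 39.8% for the labelled Prom1+CD49f+CD45+ over presorted (all-gene medians -0.14 and -0.13), and 24.3% for Prom1-CD49f+CD45-. Depth did not limit the 15 messenger and ribosomal RNAs, but 20 transfer RNAs had under 100 counts in every library.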
